A study of Mus musculus with 6 samples.

Results

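The interferon-induced and antigen presentation genes were taken by symbol as those of the Irf, Ifi, Ifit, Ifitm, Isg, Gbp and H2 families together with genes that include *Stat2*, *Ifih1*, *Ddx58*, *Usp18*, *Rsad2*, *B2m*, *Tap1* and *Tap2*. They numbered 85 of the 17577 genes listed for each library. *Mx1*, *Mx2* and *Isg15*, which the same rule would take, are not among the 85 and are not analysed here. A few genes carry such a symbol without belonging to either system: *H2-Ke6* encodes a steroid dehydrogenase, *Irf2bp1*, *Irf2bp2* and *Irf2bpl* encode proteins named for binding IRF2, and *Isg20l2* encodes a nuclease of ribosomal RNA maturation. They were kept, because the symbol alone chose the members.

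Germinal vesicle (GV) oocytes, which are arrested in meiotic prophase, were profiled in 3 *Bnc1*tr/tr and 3 wild-type (WT) libraries. Both groups came from C57BL/6 J females 12 weeks of age, primed with pregnant mare serum gonadotropin, and a single oocyte was the input of each cDNA. *Bnc1*tr/tr mice are homozygous for a frameshift deletion that truncates basonuclin 1, a zinc finger transcription factor, and the allele is carried by every cell of the mouse, so the somatic cells around the oocyte carry it too. Expression is given in FPKM, which scales the fragments of a gene by transcript length and by the mapped fragments of the library. Throughout, values of a gene are given for replicates 1, 2 and 3 of a group in that order.

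Interferons are secreted when a cell senses foreign nucleic acid. Sensors of RNA such as RIG-I (*Ddx58*) and MDA5 (*Ifih1*) signal through IRF3 and IRF7, which switch on interferon genes. Interferon receptors act through JAK kinases on STAT proteins, among them STAT2, which with IRF9 binds the interferon-stimulated response element, while interferon gamma acts through the gamma-activated site. The targets include the IFIT, IFITM and guanylate-binding proteins, which restrict viruses and intracellular parasites, and the genes that load and display peptides. MHC class I molecules, with beta 2-microglobulin (*B2m*) as their light chain, are displayed by most cells, while class II molecules belong to dendritic cells, B cells and macrophages. Mouse MHC genes bear the prefix H2, and 34 of the 85 members, the H2 genes with *Tap1* and *Tap2*, lie on chromosome 17.

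The promoters of these genes show what interferon factors read, so the response element is shown here for 4 members, with its core in capitals. Promoter sequences came from RefSeq (GRCm38.p6) and were available for 69 of the 85 members, and the 250 bases before the start were searched on both strands. The core, GAAA followed by 2 bases of any kind and GAAA again, was found in 19 of the 69 members (27.5%) and in 936 of all 27025 genes with a promoter (3.46%). *B2m* and the guanylate-binding protein genes *Gbp3* and *Gbp5*, all called higher in *Bnc1*tr/tr oocytes as described below, held it, and so did *Gbp7*, which was not called. In the 3 Gbp promoters the core reads on the opposite strand, as TTTC, 2 bases and TTTC.
B2m (chr2:122147538-122147567, plus strand, GRCm38.p6): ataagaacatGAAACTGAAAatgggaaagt
Gbp3 (chr3:142559959-142560015, plus strand, GRCm38.p6): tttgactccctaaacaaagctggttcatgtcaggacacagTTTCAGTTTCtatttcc
Gbp5 (chr3:142496729-142496818, plus strand, GRCm38.p6): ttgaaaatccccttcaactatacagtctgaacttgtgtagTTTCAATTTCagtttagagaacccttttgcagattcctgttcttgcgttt
Gbp7 (chr3:142530243-142530332, plus strand, GRCm38.p6): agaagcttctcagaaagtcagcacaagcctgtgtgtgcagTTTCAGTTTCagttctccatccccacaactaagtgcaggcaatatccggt

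*Gbp3*, *Gbp5* and *Gbp7* are neighbours on chromosome 3. The *Gbp7* core carries the same letters as the marked core of *Gbp3*. The *Gbp3* stretch holds a further core that overlaps the marked one and is not marked. *Gbp7*, unlike *Gbp3*, also holds the gamma-activated core given next. These genes differed in their readout, as given below. The gamma-activated core TTCNNNGAA was in 10 of the 69 members (14.5%) and in 2197 of the 27025 genes (8.13%). Of the 13 members called higher, 9 had a promoter entry, 3 of these held the response element core and 2, *Gbp5* and *Isg20*, the gamma-activated core. A match describes letters only, and no binding was measured. The gamma-activated cores of *Isg20* and *Gbp5* that lie within 100 bases of the start are shown, since both genes were called higher.
Isg20 (chr7:78913311-78913395, plus strand, GRCm38.p6): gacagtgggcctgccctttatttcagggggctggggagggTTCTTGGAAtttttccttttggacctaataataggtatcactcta
Gbp5 (chr3:142496842-142496930, plus strand, GRCm38.p6): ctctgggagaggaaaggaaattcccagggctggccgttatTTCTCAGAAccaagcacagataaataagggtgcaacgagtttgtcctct

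The libraries were checked first. *Bnc1* had 9.04, 6.51 and 5.83 FPKM in *Bnc1*tr/tr and 13.17, 12.54 and 16.23 in WT oocytes (log2 fold change -0.89, SE 0.20, limma adjusted p = 0.00895), so the transcript was reduced but present. All 17 oocyte markers examined were above 0 in every library. Low FPKM values fall on steps of 1 fragment, which put the depth at 12.65 to 21.6 M fragments (M, mega) per library, least certain in WT replicate 3. For a transcript of 1 kb, 3 fragments then amount to 0.139 to 0.237 FPKM, a floor that covers counting error only. *Bnc1*tr/tr libraries listed more genes above 0 (15258 to 15736) than WT libraries (13896 to 14576).

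*Bnc1*tr/tr replicates 1 and 2 stood apart by markers of immune cells. Of 30 listed markers of leukocytes, macrophages, lymphoid cells and neutrophils, 10 were above 0 in these libraries and at 0 in *Bnc1*tr/tr replicate 3 and in every WT library. They were *Ptprc*, *Cd52*, *Tyrobp*, *Fcer1g*, *Spi1*, *Lyz2*, *Cd14*, *Aif1*, *C1qc* and *Cd74*. *Fcer1g*, a signalling chain of macrophage Fc receptors, had 15.05 and 11.91 FPKM, and *Lyz2*, the lysozyme of macrophages, had 5.81 and 47.97. Haemoglobin *Hba-a1* followed the same pattern at 0.4 and 5.9 FPKM. The whole immune list summed to 197, 230.4 and 123 FPKM in *Bnc1*tr/tr and to 184, 208 and 159.6 in WT libraries, and *C1qb* and *Ms4a1*, present in all 6, made up the larger part of it in the WT libraries. Without these, the sums were 101, 118 and 18.1 in *Bnc1*tr/tr and 9.36, 8.07 and 9.13 in WT. Whether an oocyte carried a trace of an attached cell or itself held such RNA cannot be told apart in a library of this kind.

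**Figure D1:**
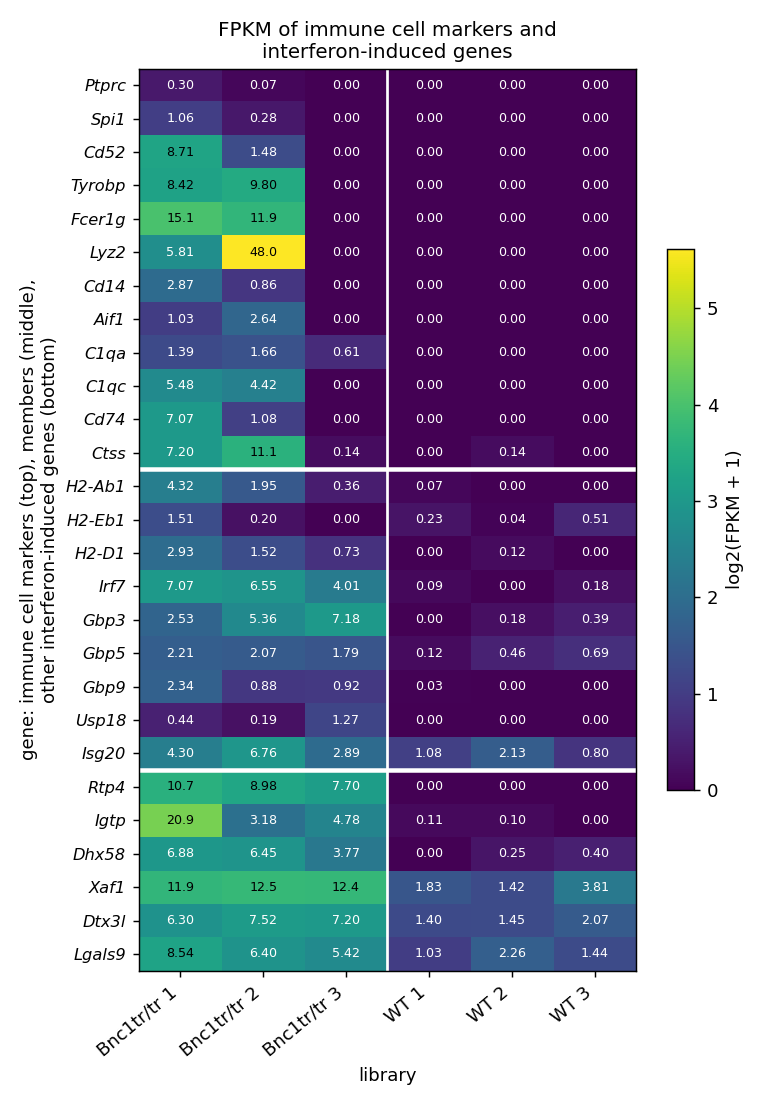
FPKM in each library (columns, 3 Bnc1tr/tr and 3 WT) of 12 immune cell markers (top), 9 members (middle) and 6 other interferon-induced genes (bottom), with colour giving log2(FPKM + 1). The 10 markers named in the text are above 0 in Bnc1tr/tr replicates 1 and 2 and at 0 in the other libraries, whereas Irf7, Gbp3 and Rtp4 are also above 4 FPKM in replicate 3.

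Members were mostly silent, and a few were abundant. Only 31 of the 85 reached a mean of 1 FPKM over the 6 libraries and were tested, and 14 reached 5 FPKM. Another 48 stayed below 1 FPKM in every library. Summed over all 85, FPKM was 1878, 1616 and 1598 in *Bnc1*tr/tr and 1093, 1241 and 1509 in WT libraries, so the groups did not overlap. *Ifitm6*, *Ifitm3*, *Ifit1bl2* and *B2m* held 74.2 to 84.9% of that sum in each library. Without the class II genes the sums were 1819.8, 1556 and 1543 against 1068, 1215 and 1477, again with no overlap. Since these sums are made largely of 4 genes, they say little of the rest.

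Compared between the genotypes with limma on log2(FPKM + 1), 13 of the 31 tested members were called higher in *Bnc1*tr/tr oocytes (41.9%), where 24.1% of all 10560 tested genes were. A gene was called when its adjusted p (Benjamini-Hochberg) was below 0.05 and its log2 fold change exceeded 0.5 in size. In the other direction 2 members (6.45%) were called lower, against 7.68% of all tested genes, and 16 were not called. The median log2 fold change was 0.72 over the tested members and 0.15 over all tested genes. Among the 31, 6 had passed the filter with a WT mean under 1 FPKM (among them *Gbp3*, *Gbp5*, *H2-Ab1*, *Irf7* and *Stat2*), so that only a higher *Bnc1*tr/tr level could bring them in. When no filter was used and all 85 were tested, 11 (12.9%) were called higher, against 15.6% of all genes, and 2 lower, against 3.83%. Over all 85 members every *Bnc1*tr/tr library lay above every WT library for 20 (23.5%), where 28.2% of all listed genes did so. The reverse held for 2 members (2.35%), against 9.78% of all listed genes. Among the 31 tested members the groups parted in these ways for 14 (45.2%) and 2 (6.45%), against 32.7% and 14.1% of the tested genes. The share called higher thus lay above the background among the tested members and below it among all 85.

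These counts moved with the libraries and the scaling. Without *Bnc1*tr/tr replicate 1 or without replicate 2, 8 members were called higher, and without WT replicate 2 there were 7, while the shares of all tested genes called higher were 18.6, 19.9 and 18%. When *Bnc1*tr/tr replicate 3, the library without the 10 immune markers, was compared alone with the 3 WT libraries, its spread taken to be that of WT, *Irf7* and *Gbp3* were called higher (2 of 31, with 7.29% of all tested genes called higher) and 0 members lower (1.04% of all tested genes). Of the calls over all tested genes 75.8% were higher, but 48.0% after quantile normalization. That normalization moved the median log2 fold change of all genes to -0.09 and left 9 members called higher and 2 lower, against 15.8% and 17.1% of all tested genes, the calls lost including *Gbp8*, *H2-T-ps* and *Ifi30*. Median-ratio scaling lost *B2m*, *Gbp8* and *Ifi30*. No called member changed direction under any scaling.

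**Figure D2:**
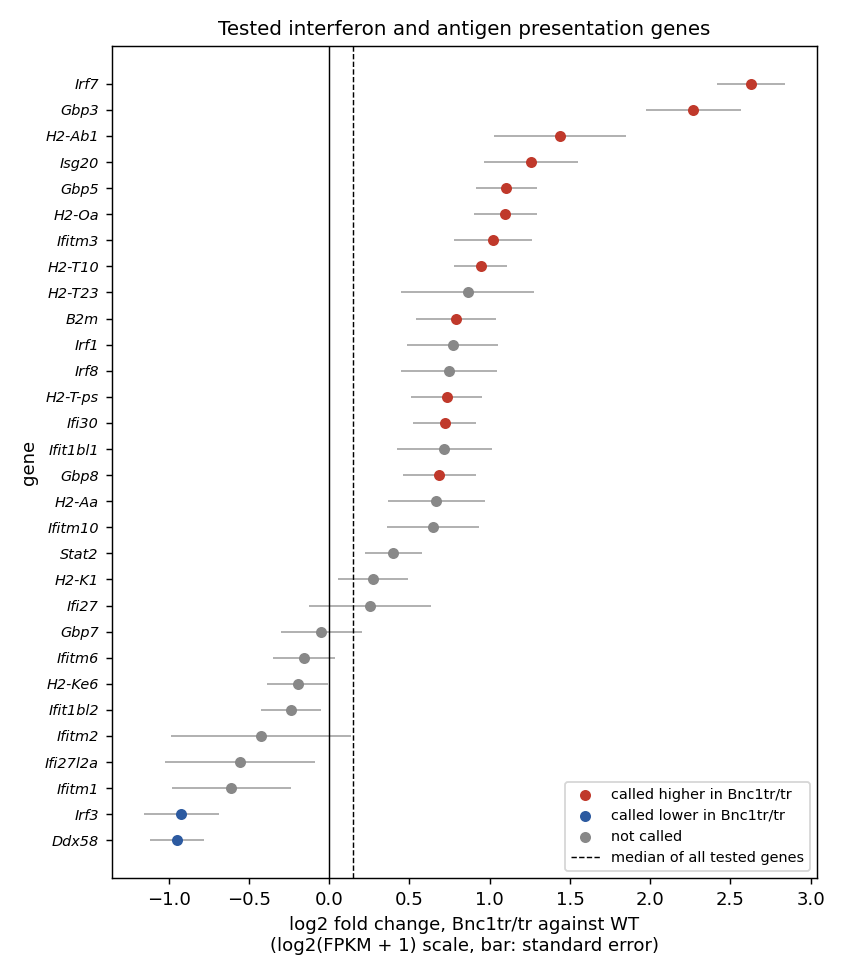
Log2 fold change, Bnc1tr/tr against WT, on the log2(FPKM + 1) scale for 30 of the 31 tested members, ordered by size, with bars for the standard error. The 12 plotted members called higher (red) are led by Irf7 and Gbp3, the 2 called lower (blue) are Irf3 and Ddx58, and the dashed line marks the median of all tested genes at 0.15.

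Among the IRF transcription factors, *Irf7* was higher and *Irf3* lower in *Bnc1*tr/tr oocytes. *Irf7*, the interferon-inducible amplifier of the interferon response (chr7:141263183-141266499, GRCm38.p6), had 7.07, 6.55 and 4.01 FPKM against 0.09, 0 and 0.18 in WT. It was near 0 in each WT library and above 4 FPKM in each *Bnc1*tr/tr library (log2 fold change 2.63, SE 0.21, limma adjusted p = 3.5e-05). *Irf3*, which is present before infection and acts on sensing, had 4.43, 3.92 and 2.32 FPKM against 9.05, 7.82 and 5.79 (-0.92, SE 0.24, limma adjusted p = 0.0168), with no overlap. This call was lost without *Bnc1*tr/tr replicate 3, WT replicate 1 or WT replicate 2. *Irf1*, an activator of antigen presentation genes, was the most abundant IRF. It had 124, 89.5 and 69.3 FPKM against 71.7, 56.5 and 37.3, so the groups overlapped and it was not called (0.77, limma adjusted p = 0.0681). *Irf8*, a factor of the myeloid lineage, had 5.98, 3.85 and 3.12 against 3.40, 2.27 and 1.05 and was not called either (0.75, limma adjusted p = 0.0907). The remaining IRFs were below the filter, and *Irf9*, the partner of STAT2, was listed at 0.25, 0.03 and 0 FPKM in *Bnc1*tr/tr and at 0 in every WT library.

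*Stat2*, which carries the signal of type I interferon, had 1.47, 1.06 and 1.51 against 0.73, 0.57 and 1.05. The lowest *Bnc1*tr/tr value lay 0.01 above the highest WT value, and it was not called (0.40, limma adjusted p = 0.118).

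Of the 2 cytosolic RNA sensors 1 was tested. *Ddx58*, the gene of RIG-I, had 1.84, 2.17 and 2.64 FPKM against 5.66, 4.82 and 5.10 in WT, and was lower (-0.95, SE 0.17, limma adjusted p = 0.00279). The lowest WT value, 4.82, lay well above the highest *Bnc1*tr/tr value. *Ifih1*, the gene of MDA5, was listed at 0.16, 0.11 and 0.34 FPKM in *Bnc1*tr/tr and at 0 in each WT library. It lay under the filter and was not tested. Its longest transcript has 5470 bases, so the floor given for 1 kb does not apply to it.

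Among the antiviral enzymes, *Isg20*, an exonuclease of single-stranded RNA, had 4.30, 6.76 and 2.89 FPKM against 1.08, 2.13 and 0.80 (log2 fold change 1.26, SE 0.29, limma adjusted p = 0.0107). Its lowest *Bnc1*tr/tr value exceeded its highest WT value. *Usp18*, which removes ISG15 from proteins and dampens the receptor, was listed at 0.44, 0.19 and 1.27 FPKM against 0 in every WT library, with the highest value in replicate 3. *Rsad2*, the gene of viperin, reached 0.13 FPKM and was listed at 0 in replicate 3 and in WT.

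The IFIT genes, whose proteins bind viral RNA, gave no call, and 2 of the 4 were tested. *Ifit1bl2* was abundant in both genotypes, with 120.1, 128 and 115 FPKM against 158, 163 and 113 (-0.24, limma adjusted p = 0.375). The canonical *Ifit1*, by contrast, did not pass 0.06 FPKM in any library. These neighbours on chromosome 19 share a stretch with a response element core, which lies upstream of *Ifit1* on the plus strand and near the start of *Ifit1bl2* on the minus strand, and it is printed for that shared position.
Ifit1 (chr19:34640775-34640804, plus strand, GRCm38.p6): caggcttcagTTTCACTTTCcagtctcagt
Ifit1bl2 (chr19:34640775-34640804, minus strand, GRCm38.p6): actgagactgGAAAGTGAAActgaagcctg

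*Ifit1bl1*, another gene of this cluster, had 4.66, 2.88 and 2.06 FPKM against 1.80, 2.19 and 0.69 and was not called (0.72, limma adjusted p = 0.0954).

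The IFITM genes, whose membrane proteins block virus entry and mark germ cells, were the most abundant members. Of 5 tested 1 was called higher, where 24.1% of all tested genes were. *Ifitm3*, also known as fragilis, had 664, 481 and 562 FPKM against 217, 250.03 and 394 in WT (log2 fold change 1.02, SE 0.24, limma adjusted p = 0.0126). Its lowest *Bnc1*tr/tr value lay above its highest WT value, that of WT replicate 3, and the call was lost without WT replicate 2. Other genes hold 20.5% of its sequence words. *Ifitm6* was as abundant, with 473, 493 and 444 FPKM against 425, 512 and 661, and its groups overlapped (-0.16, limma adjusted p = 0.578). *Ifitm10* had 7.96, 5.69 and 3.17 against 2.28, 4.04 and 2.93 and was not called (0.65, limma adjusted p = 0.119), nor were *Ifitm1* and *Ifitm2*.

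**Figure D3:**
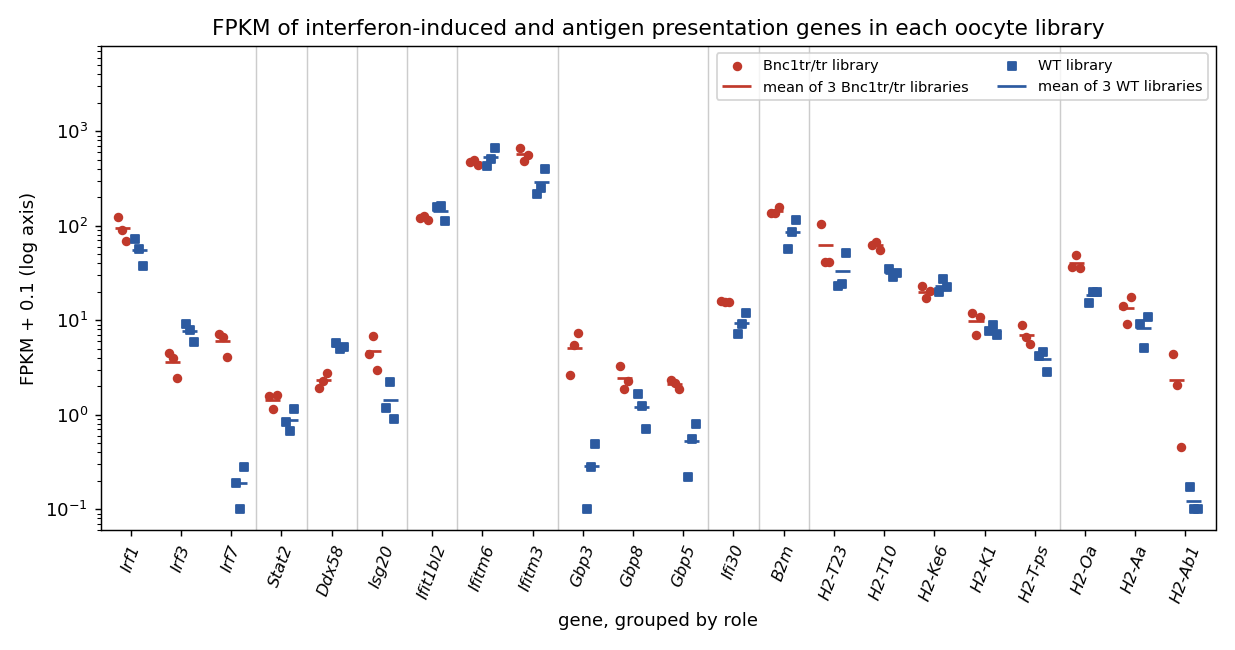
Level of 22 named members in each library, as FPKM + 0.1 on a log axis, with a point per Bnc1tr/tr (circles) or WT (squares) library and a line at each group's mean. Irf7 and Gbp3 have WT values of at most 0.39 FPKM and Bnc1tr/tr values of 2.53 to 7.18, whereas Ifitm6 and Ifit1bl2 overlap between the groups above 100 FPKM.

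Of the 7 guanylate-binding proteins, large GTPases that interferon gamma induces against intracellular pathogens, 4 were tested and 3 were called higher. The share of all tested genes called higher was 24.1%. *Gbp3* had 2.53, 5.36 and 7.18 FPKM against 0, 0.18 and 0.39 in WT, highest in *Bnc1*tr/tr replicate 3 (log2 fold change 2.27, SE 0.30, limma adjusted p = 0.00054). *Gbp5*, which also promotes inflammasome assembly, had 2.21, 2.07 and 1.79 against 0.12, 0.46 and 0.69 (1.10, SE 0.19, limma adjusted p = 0.00259), and its *Bnc1*tr/tr values were close to each other. *Gbp8*, on chromosome 5, had 3.16, 1.77 and 2.15 against 1.54, 1.13 and 0.61 (0.69, SE 0.23, limma adjusted p = 0.0469). That call was lost in 12 of 15 alternatives, and 31.1% of its sequence words occur in other genes. *Gbp7*, whose marked promoter core matches the marked core of *Gbp3*, had 3.47, 4.93 and 3.2 FPKM against 4.43, 5.49 and 2.5. Its groups overlapped (-0.05, limma adjusted p = 0.906). *Gbp9*, under the filter, had 2.34, 0.88 and 0.92 against 0.03, 0 and 0 and was called only in the fit over all 85 members (limma adjusted p = 0.02).

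Of the 14 other Ifi genes 3 were tested. *Ifi30*, the lysosomal thiol reductase GILT that unfolds antigens for class II loading, had 16.02, 15.34 and 15.66 FPKM against 7.06, 9.04 and 11.78 (log2 fold change 0.72, SE 0.20, limma adjusted p = 0.0218). The *Bnc1*tr/tr values were nearly equal, including replicate 3, while WT values spread from 7.06 to 11.78, and the call was lost when any single library other than WT replicate 3 was left out. *Ifi27*, a mitochondrial interferon-induced protein, had 4.42, 7.01 and 1.58 against 3.28, 3.99 and 2.09 and *Ifi27l2a* had 0.29, 1.95 and 0 against 2.47, 0.23 and 1.83. Neither was called and in both the groups overlapped. The HIN-200 genes of DNA sensing, among them *Ifi203*, *Ifi204* and *Ifi211*, stayed below the filter, the highest value being 1.46 FPKM for *Ifi213*.

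For MHC class I, the light chain gene and the class Ib genes *H2-T10* and *H2-T-ps* were called higher, and of the classical heavy chains *H2-K1* was tested and not called. *B2m* had 135, 138 and 158 FPKM against 56.9, 86.05 and 114 (log2 fold change 0.79, SE 0.25, limma adjusted p = 0.0378), highest in replicate 3 of both groups. Its call was lost in 10 of 16 alternatives, among them leaving out each *Bnc1*tr/tr library and WT replicates 1 or 2. *H2-T10*, a class Ib gene that RefSeq marks as a transcribed pseudogene, had 62.5, 67.7 and 55.0 FPKM against 34.8, 28.6 and 31.5 (0.94, SE 0.17, limma adjusted p = 0.00288). Other genes, *H2-T22* among them, hold 64.2% of its sequence words, so reads could be split between them, and *H2-T22* itself reached only 0.54 FPKM. *H2-T-ps* had 8.82, 6.53 and 5.47 against 4.08, 4.54 and 2.71 (0.73, SE 0.22, limma adjusted p = 0.0343), and shares 48.4% of its words. Its call was lost in 9 of 16 alternatives, among them leaving out *Bnc1*tr/tr replicates 1 or 2 or WT replicates 1 or 3. *H2-T23*, which encodes Qa-1, a ligand of natural killer cell receptors, had 104, 41.28 and 41.28 FPKM against 23.0, 23.8 and 51.6. *Bnc1*tr/tr replicate 1 was far above the rest and the groups overlapped (0.86, limma adjusted p = 0.143).

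*H2-K1*, a classical class I heavy chain, had 11.8, 6.84 and 10.6 FPKM against 7.60, 8.80 and 6.88 (0.27, limma adjusted p = 0.375), and its direction flipped after quantile normalization. The other classical chain, *H2-D1*, had 2.93, 1.52 and 0.73 against 0, 0.12 and 0. It lay under the filter, and without the filter it was called higher (limma adjusted p = 0.0294). The peptide transporter genes *Tap1* and *Tap2* did not pass 0.04 and 0.29 FPKM in any library, and both lay under the filter. *H2-Ke6*, the steroid dehydrogenase gene, had 17.0 to 22.7 FPKM against 19.7 to 27.2 and was not called (-0.20, limma adjusted p = 0.467).

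Among the 8 class II genes, levels were uneven and 2 of the 3 tested were called higher, where 24.1% of all tested genes were. *H2-Oa*, the alpha chain of a regulator of peptide exchange, had 36.4, 48.9 and 35.6 FPKM against 15.1, 19.88 and 19.87 (log2 fold change 1.10, SE 0.20, limma adjusted p = 0.00298). Its partner chain *H2-Ob* was listed at 0.05 FPKM in *Bnc1*tr/tr replicate 2 and at 0 in the other 5 libraries. An antisense gene overlaps 22.8% of the exonic bases of *H2-Oa*, and without strand its reads cannot be told apart. *H2-Aa*, the alpha chain of the main class II molecule, had 14.02, 8.97 and 17.5 against 9.01, 4.94 and 10.6, with overlapping groups (0.67, limma adjusted p = 0.125). Its beta chain *H2-Ab1* had 4.32, 1.95 and 0.36 against 0.07, 0 and 0 (1.44, SE 0.41, limma adjusted p = 0.0262). *Cd74*, the invariant chain of class II, had 7.07, 1.08 and 0 FPKM in these libraries and was listed at 0 in WT, and the part of immune cell RNA in *H2-Ab1* was not tested. Without *Bnc1*tr/tr replicate 1 the *H2-Ab1* log2 fold change was 0.97 (limma adjusted p = 0.0595), and with replicate 3 alone it was 0.41 (limma adjusted p = 0.272). *H2-Eb1* had 1.51, 0.20 and 0 against 0.23, 0.04 and 0.51.

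Of the 54 members under the filter, 42, 35 and 23 (77.8, 64.8 and 42.6%) were above 0 in the *Bnc1*tr/tr libraries, where 72.4, 73.9 and 67.3% of all 7017 genes under the filter were. In WT libraries 18, 21 and 10 (33.3, 38.9 and 18.5%) were above 0, against 58.9, 58.7 and 49.8%. The higher mean was in *Bnc1*tr/tr for 47 (87.0%), against 69.6% of these genes. In all, 20 members (37.0% of the 54) were above 0 in *Bnc1*tr/tr replicate 1 or 2 and in no other library, at up to 0.78 FPKM, and 12.5% of all genes under the filter shared this pattern. *H2-Bl*, *Ifi204*, *Ifi44*, *Irf4*, *Irf9* and *Rsad2* were among those above 0 in both and in no other library, the pattern of the 10 immune markers, which 7 of the 54 (13.0%) and 2.95% of all genes under the filter showed. *Gbp4*, *Ifih1* and *Usp18* were instead above 0 in all 3 *Bnc1*tr/tr libraries and at 0 in WT. The 10 markers were at 0 in replicate 3, where *Irf7* had 4.01, *Gbp3* 7.18 and *Gbp5* 1.79 FPKM.

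Markers of other ovarian cells were examined in the same way, where 24.1% of all tested genes were called higher and 7.68% lower. Of 6 tested granulosa markers 2 were called higher, *Fshr* and *Kitl*. The list sums were 357 to 421 FPKM in *Bnc1*tr/tr and 199.7 to 325 in WT. *Serpine2*, which was not called (0.485, limma adjusted p = 0.121), made up the larger part of each sum. *Foxl2*, *Wt1* and *Amhr2* were at 0 in every *Bnc1*tr/tr library and did not pass 0.03, 0.08 and 0.21 FPKM in WT. The 2 tested theca and stroma markers, *Cyp11a1* and *Dcn*, were both called higher, with list sums of 11.8 to 15.8 against 2.80 to 3.90. Endothelial markers gave 0 higher and 1 lower of 2 tested, *Pecam1* (-1.02, limma adjusted p = 0.00477), while *Tek* was not called. The list sums were 5.5 to 8.17 against 10.4 to 11.9, and *Pecam1* made up the larger part of each. *Kdr*, under the filter, went the other way, with 1.54, 0.64 and 0.53 FPKM against 0.10, 0.12 and 0.07. The granulosa marker *Inha* had 0.18, 1.81 and 0.09 against 6.78, 3.45 and 0.04 FPKM and was not called. Their part in the member results was not tested.

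Other genes of the interferon and antigen presentation pathways were read from 4 lists of 94 genes, of which 86 were listed and 48 tested. Of these 17 (35.4%) were called higher and 7 (14.6%) lower, against 24.1% and 7.68% of all tested genes, with a median log2 fold change of 0.35. Of the 17, 7 had a WT mean under 1 FPKM and passed the filter through the *Bnc1*tr/tr libraries, among them *Rtp4*, *Igtp* and *Dhx58*. When no filter was used, 21 of the 86 (24.4%) were called higher and 6 (6.98%) lower, against 15.6% and 3.83% of all genes. After quantile normalization 14 were higher and 11 lower, against 15.8% and 17.1% of all tested genes. Without both *Bnc1*tr/tr replicates 1 and 2, where 1 library stands for its group, the called genes kept their direction. Most of them were no longer called. Log2 fold changes then ran from 0.13 (*Ctss*) to 3.12 (*Rtp4*) for genes called higher with all libraries. For genes called lower with all libraries they ran from -0.45 (*Cgas*) to -1.17 (*Tlr3*). The lower count was 3 without *Bnc1*tr/tr replicate 1, without replicate 2 or without WT replicate 2, and 4 without WT replicate 1. Of all tested genes 4.98, 5.55, 3.96 and 5.68% were called lower in these fits, in the same order.

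Receptors, kinases and feedback genes gave 2 higher of 9 tested and 0 lower, against 24.1% and 7.68% of all tested genes. Their most abundant genes, the phosphatase *Ptpn2* (314, 343 and 366 FPKM against 339, 311 and 339), the STAT inhibitor *Pias1* and the kinase *Jak2*, were not called. *Ptpn6*, the phosphatase SHP-1, had 44.6, 29.6 and 28.8 FPKM against 8.72, 8.32 and 7.38 (log2 fold change 1.92, limma adjusted p = 0.000161), and the *Bnc1*tr/tr libraries were all well above WT. *Socs1*, an interferon-induced inhibitor of JAK kinases, had 19.65, 11.52 and 9.57 against 8.98, 4.57 and 3.13 (1.19, limma adjusted p = 0.0297), a call lost without *Bnc1*tr/tr replicates 1 or 2 or WT replicates 2 or 3. The receptor chain *Ifnar1* was not called, and *Ifngr1* was listed at 0.80, 0.94 and 1.08 FPKM in *Bnc1*tr/tr and at 0 in WT.

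Of 8 tested sensors and adaptors 2 were called higher and 2 lower, where 24.1% and 7.68% of all tested genes were. *Dhx58*, the gene of LGP2, which modulates RIG-I and MDA5, had 6.88, 6.45 and 3.77 FPKM against 0, 0.25 and 0.40 (log2 fold change 2.44, limma adjusted p = 8.98e-05). *Tlr8* had 3.24, 2.57 and 2.18 against 0.06, 0.86 and 0.57 (1.32, limma adjusted p = 0.00279). *Tlr3*, the endosomal receptor of double-stranded RNA, had 0.37, 0.42 and 0.41 against 1.78, 2.18 and 2.60 and was lower (-1.18, limma adjusted p = 0.000784). *Cgas*, the DNA sensor, had 7.22, 6.67 and 8.95 against 11.66, 12.83 and 13.36 and was lower too (-0.67, limma adjusted p = 0.0165), a call lost without *Bnc1*tr/tr replicates 1 or 2 or WT replicate 2. The kinase *Tbk1*, the adaptor *Mavs* and the ligase *Rnf135* were not called, at log2 fold changes of -0.01, 0.12 and 0.49.

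Other interferon-induced effectors held 11 of the 17 higher calls, with 18 tested and 3 called lower. The shares of all tested genes were 24.1% higher and 7.68% lower. *Rtp4* had 10.74, 8.98 and 7.70 FPKM and was listed at 0 in every WT library (limma adjusted p = 3.15e-06). *Igtp*, an immunity-related GTPase, had 20.92, 3.18 and 4.78 against 0.11, 0.10 and 0 (2.92, limma adjusted p = 0.0027), highest in *Bnc1*tr/tr replicate 1, and 2.2 without that library (limma adjusted p = 0.000301). *Xaf1*, an antagonist of apoptosis inhibitors, had 11.93, 12.49 and 12.42 against 1.83, 1.42 and 3.81 (2.05, limma adjusted p = 0.000355). *Dtx3l* (1.61) and *Lgals9* (1.60), a ubiquitin ligase and a galectin, were higher as well, followed by *Sp100*, *Parp9*, *Slfn5*, *Cmpk2*, *Bst2* and *Adar*. Lower were *Epsti1* with 18.5, 35.8 and 34.0 against 64.9, 56.9 and 55.1 (-1.03, limma adjusted p = 0.0135), the nuclear body gene *Sp110* (-0.87) and *Samhd1*, which hydrolyses deoxynucleotides (-0.63). The *Sp110* call was lost when any single library other than WT replicate 3 was left out, and that of *Samhd1* without *Bnc1*tr/tr replicates 1 or 2 or WT replicates 1 or 2. *Adar* lost its call without *Bnc1*tr/tr replicates 1 or 3 or WT replicates 2 or 3, *Bst2* without *Bnc1*tr/tr replicates 1 or 3 or WT replicate 2, and *Cmpk2* without *Bnc1*tr/tr replicate 1. *Parp12*, the second most abundant of this list after *Sp110*, was not called (0.09).

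Antigen processing outside the H2 genes gave 2 higher and 2 lower of 13 tested, against 24.1% and 7.68% of all tested genes. *Tapbpl*, a peptide editor of class I, had 37.0, 21.5 and 19.2 FPKM against 9.25, 9.99 and 13.3 (log2 fold change 1.14, limma adjusted p = 0.00994). *Ctss*, the cathepsin that trims the invariant chain, had 7.20, 11.06 and 0.14 against 0, 0.14 and 0 (2.21, limma adjusted p = 0.0446). Replicate 3 was at the WT level here, and the call was lost when *Bnc1*tr/tr replicate 1, replicate 2 or any WT library was left out. The chaperones *Pdia3* and *Canx*, which fold class I heavy chains, were lower (-0.80 and -0.79, limma adjusted p = 0.0285 and 0.0088), *Pdia3* losing its call without *Bnc1*tr/tr replicates 1 or 2 or WT replicates 1 or 2, while *Calr*, the most abundant of the list, and the endosomal protease *Lgmn* were not called (0.21 and 0.63). Immunoproteasome genes *Psmb8* and *Psmb9* had 1.27, 0.83 and 0.06 and 1.02, 0.20 and 0 FPKM in *Bnc1*tr/tr, and at most 0.20 and 0 in WT, while the third immunoproteasome subunit *Psmb10* had 0.79, 0.10 and 0 against 0.39, 0.80 and 0.35. *Nlrc5*, the activator of class I genes, did not pass 0.04 FPKM.

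**Figure D4:**
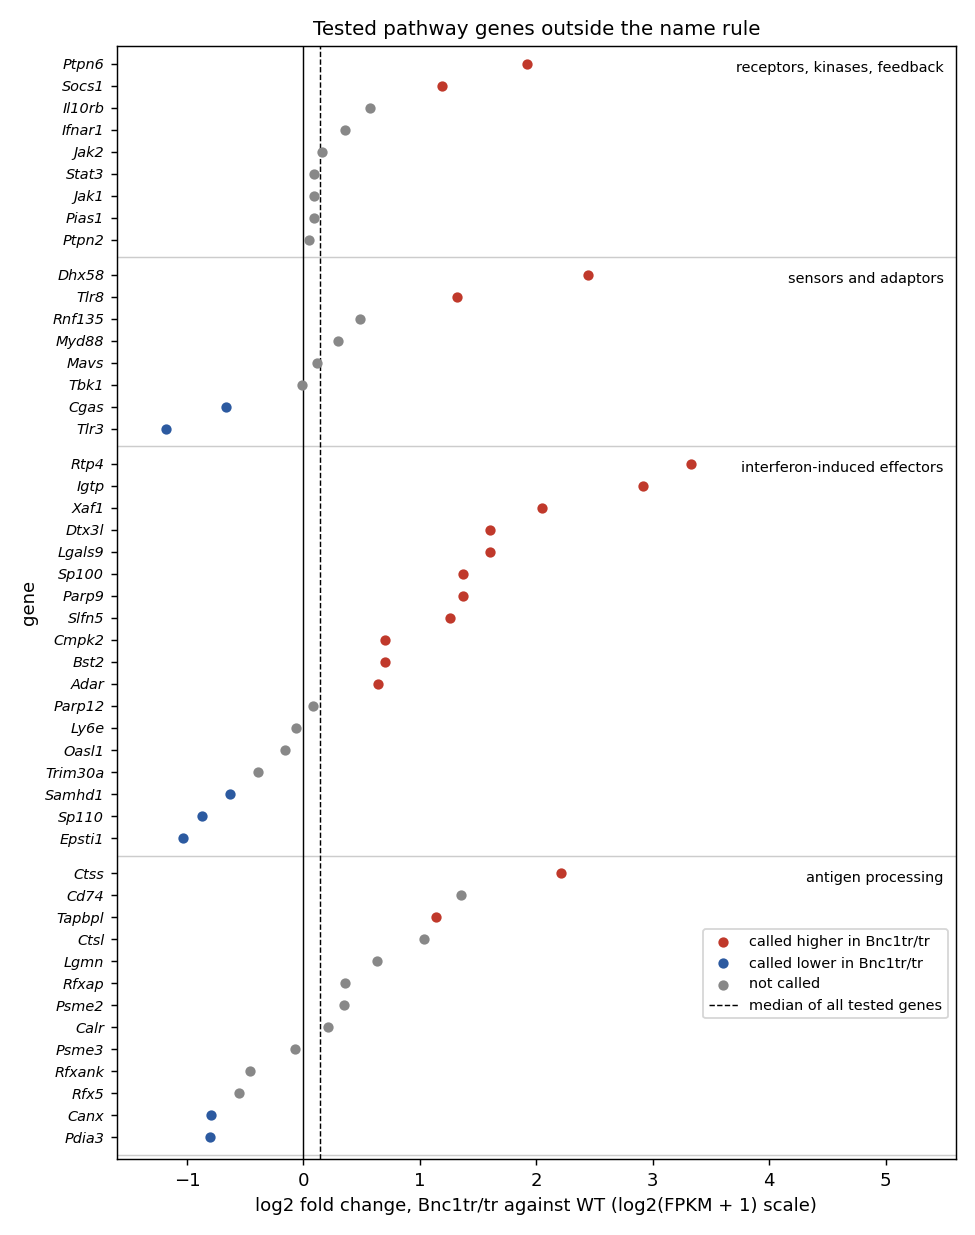
Log2 fold change, Bnc1tr/tr against WT, on the log2(FPKM + 1) scale of the 48 tested genes of the 4 pathway lists, with a point per gene coloured by call and a dashed line at the median of all tested genes. The 17 genes called higher (red) reach farthest for Rtp4 and Igtp, and the 7 called lower (blue) reach farthest for Tlr3.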

How the data were processed

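Polyadenylated RNA of single GV oocytes was amplified by a modified Smart-seq2 protocol without molecular identifiers, and the authors deposited FPKM per gene for each of the 6 libraries. The submitters' processing notes name HISAT2 2.0.4, Bowtie2 2.2.5, RSEM 1.2.12 and GRCm38.p6. Since FPKM is a share of the library, abundant transcripts that change move all other values. Date-like symbols (25) were repaired by Gene ID. Genes averaging 1 FPKM or more over the libraries were tested by limma 3.58.1 (R 4.3.3) after log2(FPKM + 1), a scale that understates changes of low genes, at the thresholds of 0.05 and 0.5 that the study used. Shared 31-base words were counted in GENCODE transcripts. The fit was tested on simulated data.

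The members and lists were chosen with earlier results of these data known. Named were members called, with a mean of 5 FPKM or non-overlapping groups, otherwise up to 3 of each role, and of each pathway list the 3 most abundant genes and up to 5 called, with a few low genes chosen after their values were seen. Littermates were compared, and p-values measure the spread between these libraries. Some genes are not reported here.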

Additional observations from a re-analysis of the deposited data

How the results depend on the processing

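Of 359 alternative values of the 23 named members, 287 kept their direction and side of the threshold, 64 lost the call, 5 gained it and 3 reversed: *H2-K1* (-0.031) and *Stat2* (-0.041) after quantile normalization, and *Ifitm6* without WT replicate 3 (-0.308 to 0.0091 with 1 replicate left out). *Irf7* and *Gbp3* kept their call in all 15 alternatives that tested them, at adjusted p up to 0.0144 and 0.0141 by limma. Members called higher numbered 6 with a minimum mean of 5 FPKM, where fewer genes are tested, 7 with a fold-change threshold of 1, 7 to 12 with 1 replicate left out, and 2 without both *Bnc1*tr/tr replicates 1 and 2, where 1 library stands for its group. Members called lower numbered 1, 0, 1 to 2 and 0 in the same order. Pathway genes called higher numbered 7 with a minimum mean of 5 FPKM and 12 to 17 with 1 replicate left out. Those called lower numbered 11 after quantile normalization, 2 with a fold-change threshold of 1 and 3 to 7 with 1 replicate left out. With the minimum mean of 5 FPKM, where 14 members were tested, 20.6% of all tested genes were called higher and 9.22% lower. The fold-change threshold of 1 gave 13.4% and 2.45% of all tested genes. With 1 replicate left out, 18% to 23.7% of all tested genes were called higher and 3.96% to 9.86% lower. Other causes were not tested. Same-numbered libraries deviated from their group means with correlations of 0.28, -0.03 and 0.12, and not every library correlated best with its own number. Whether a number marks a shared litter is not stated in the sources used here, so no pairing was assumed. In a fit that took the replicate number as a block, 17 members were called higher and 2 lower, against 26.3% and 9.02% of all tested genes. All 15 calls were shared, and *H2-Aa*, *Ifit1bl1*, *Irf1* and *Irf8* were gained. The block gave 20 higher and 8 lower pathway genes. Depth left presence below 0.139 to 0.237 FPKM on 1 kb unresolved.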

Other observations

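Some genes named for immune cells were abundant in all 6 oocyte libraries. *Ms4a1*, the gene of the B cell antigen CD20, had 43.0, 42.1 and 45.8 FPKM in *Bnc1*tr/tr and 92.2, 105 and 85.6 in WT oocytes, lower in *Bnc1*tr/tr (log2 fold change -1.09, limma adjusted p = 0.00106). *C1qb*, a chain of complement C1q, had 53.1, 70.7 and 58.6 against 82.7, 95.3 and 64.8, with overlap (limma adjusted p = 0.16), while its partner chain *C1qc* was listed at 0 in 4 libraries. *Cd79a*, another B cell gene, did not pass 0.14 FPKM in any library.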
